A study of Mus musculus with 3 samples.

Results

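The BCL2 family decides at the mitochondrion whether a stressed cell lives or dies, and 10 of its genes were followed here in mouse embryonic stem (ES) cells. The members were taken by name as well-known genes of 3 roles, and all 10 were found among the 55536 genes of the tables: the guardians Bcl2, Bcl2l1 and Mcl1, the effectors Bax and Bak1, and the BH3-only genes Bbc3, Pmaip1, Bcl2l11, Bid and Bad. Total RNA was sequenced from F121-9, a hybrid ES cell line between the Cast and 129 mouse strains, as 3 libraries that the labels number as biological replicates 1, 2 and 3. All came from passage 14 and 400 ng of RNA, with ERCC and Lexogen spike-ins added, and they form a single group of 1 line with no treatment, so no comparison between conditions exists. The labels do not say whether the replicates were separate cultures, so any p-value describes how these libraries scatter, part of which may be technical scatter.

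Guardian proteins hold effectors in check on the outer mitochondrial membrane. BH3-only proteins carry death signals such as DNA damage or loss of survival factors, and they bind guardians or effectors through a short helix called BH3. Freed effectors join into pores, cytochrome c leaves the mitochondrion, and the APAF1 complex then activates caspases. Pluripotent cells are known for a low threshold for this route.

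Each library had 9765384 to 10610782 estimated counts in tables with the layout that RSEM writes (RSEM-style) and 17717726 to 19156106 in transcript tables with the layout of kallisto (kallisto-style), both made from the same reads. Levels are given as TPM (a level per transcript length, with the same total in every library), from the RSEM-style gene tables unless stated, and as mean ± SD of n = 3 libraries. Markers of ES cells were high, as the label has it: all 7 ES cell genes reached a TPM of 1 in every library, with Nanog highest on average at 505 ± 10.9 TPM, and their summed level was 2378 to 2626 TPM. Pou5f1 had 610.5, 431 and 442 TPM, above Nanog in replicate 1. Of 8 fibroblast (feeder) markers 2 did so, with Fbln1 at 57.7 ± 4.53 TPM, a summed level of 54.5 to 63.4 TPM, and Col3a1, Dcn, Lum and Postn at 0 counts. Of 4 extraembryonic endoderm markers 2 did so, with Gata4 highest at 1.87 ± 0.0872 TPM and a summed level of 3.70 to 4.68 TPM. Replicate 1 stood apart from the other two. Across 7584 genes of at least 20 CPM (counts scaled to library size), its log2 ratio to the mean of replicates 2 and 3 rose with transcript length (Spearman rho 0.455), against -0.0970 for replicate 2 over replicate 3. This is a description across genes of the same libraries.

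All 10 genes share the BH3 stretch, and its codons are shown for 9 of them because the stretch is what places them in 1 family and what the isoforms below keep or lose. The coding regions were searched for a leucine codon, any 3 codons, a glycine, alanine or serine codon and an aspartate codon, in the coding frame of the transcript strand. Capitals mark the leucine codon and the last pair of codons of that pattern. The sequences were read 5′ to 3′ from the GENCODE M21 transcripts (mm10), each from a coding exon.
Bcl2: ctgaccCTCcgccgggctGGGGATgacttc
Bcl2l1: caagcgCTGagagaggcaGGCGATgagttt
Mcl1: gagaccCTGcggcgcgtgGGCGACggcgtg
Bax: gagtgtCTCcggcgaattGGAGATgaactg
Bak1: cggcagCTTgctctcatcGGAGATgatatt
Bid: agacatCTCgcccaaataGGCGATgagatg
Bbc3: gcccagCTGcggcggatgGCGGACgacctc
Bad: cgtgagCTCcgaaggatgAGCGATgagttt
Bcl2l11: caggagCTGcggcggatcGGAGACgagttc

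The codon before aspartate is glycine in 7 of these 9 genes. Bbc3 has an alanine codon and Bad a serine codon there. On mm10 the guardian stretches lie at chr1:106712578-106712607 (minus strand), chr2:152829700-152829729 (minus strand) and chr3:95659430-95659459 (plus strand) for Bcl2, Bcl2l1 and Mcl1. The effector stretches lie at chr7:45466000-45466029 for Bax and chr17:27022534-27022563 for Bak1, both on the minus strand. Those of the BH3-only genes lie at chr6:120897292-120897321 for Bid (minus strand), chr7:16313767-16313796 for Bbc3, chr19:6950786-6950815 for Bad and chr2:128147144-128147173 for Bcl2l11 (plus strand for these 3). The pattern alone is loose: it occurs in 33.8% of the longest complete coding regions of 21767 protein-coding genes, and in 17.3% of the 8994 that are no longer than the longest member's. In the guardians the leucine codon is number 94 of 236 in Bcl2, 90 of 233 in Bcl2l1 and 194 of 331 in Mcl1. In the effectors it is number 63 of 192 in Bax and 76 of 209 in Bak1.

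Bax was by far the most abundant member, Bcl2 was nearly silent, and the other 8 lay between 4.19 and 101.0 TPM on average. A gene was counted as expressed where every library reached 1 TPM. By that rule 9 of 10 members were expressed, against 23.6% of all genes and 52.1% of protein-coding genes. Bcl2 was the exception. The members, and the gene lists used further on, were chosen with earlier results of these data known. Such shares are therefore descriptions and not tests. In a bulk library a gene at a low level in every cell and a gene at a higher level in fewer cells cannot be told apart.

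**Figure D1:**
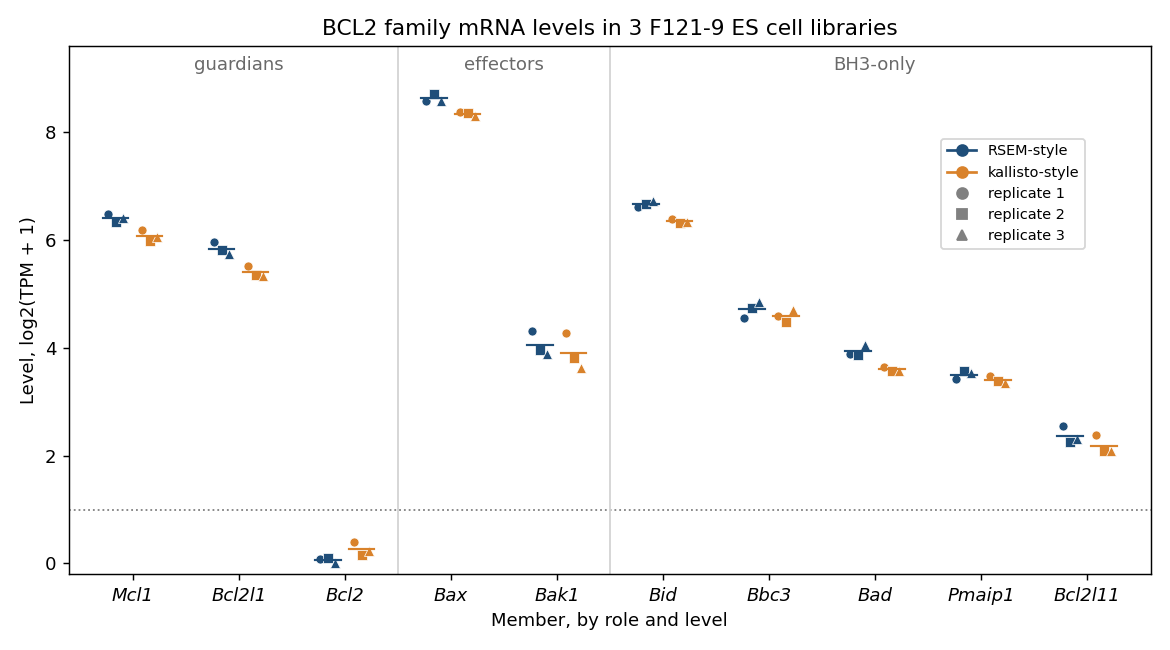
Level of the 10 members in each library, as log2(TPM + 1), with members along the x axis by role and level, 1 symbol for each replicate and a bar at the mean. RSEM-style values stand left of kallisto-style ones, and the dotted line marks a TPM of 1. Bax lies above all other members and Bcl2 alone lies below the line, in both quantifications.

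Among the guardians, which bind and restrain BAX, BAK and the BH3-only proteins, Mcl1 led. Mcl1, a short-lived guardian needed in early embryos, had 88.1, 79.7 and 83.9 TPM in replicates 1, 2 and 3 (83.9 ± 4.20), on 2167, 1870 and 2038 counts. Bcl2l1, the gene of BCL-XL, had 61.2, 55.3 and 52.7 TPM (56.4 ± 4.33), on 929, 778 and 807 counts. The 2 ranges do not overlap, and Mcl1 was 1.49 ± 0.0868 times Bcl2l1. Mcl1 stood above 83.5% and Bcl2l1 above 75.9% of the 11478 expressed protein-coding genes. Bcl2, the founding member of the family, had 0.06, 0.07 and 0 TPM, on 3, 2 and 0 counts. The count of 0 in replicate 3 allows up to 3 counts, or 0.301 CPM, which covers counting error only. In the kallisto-style tables Bcl2 had 0.323, 0.118 and 0.166 TPM on 15, 6 and 11 counts, so reads were present but a TPM of 1 was not reached in any library of either table.

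The effectors, whose proteins form the pores, stood far apart from each other. Bax, a pore-forming effector that is largely cytosolic before a death signal and a target gene of p53, had 383, 418 and 384 TPM (395 ± 20.2), on 1993, 2033 and 1970 counts. Its level exceeded that of 97.1% of expressed protein-coding genes. Bak1, the gene of the effector BAK that sits on the outer membrane, had 18.8, 14.5 and 13.8 TPM (15.7 ± 2.72), on 259, 186 and 185 counts. It stood above 44.4% of expressed protein-coding genes, in the lower part of that range. Bax was 20.4, 28.9 and 27.8 times Bak1 in replicates 1, 2 and 3 (25.7 ± 4.64), and 23.6 ± 5.03 times in the kallisto-style tables.

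Among the BH3-only genes Bid and Bcl2l11 marked the ends. Bid, whose protein is cut by caspase 8 into an activator of BAX and BAK, had 97.1, 101.3 and 104.5 TPM (101.0 ± 3.72), on 1465, 1454 and 1553 counts. Bbc3, the PUMA gene and a p53 target, had 22.5, 25.8 and 27.8 TPM (25.4 ± 2.67), on 277, 278 and 294 counts. Bid stood above 86.3% of expressed protein-coding genes and was 4.00 ± 0.285 times Bbc3. Bad, whose protein is held by 14-3-3 proteins after phosphorylation by AKT and other kinases, had 13.8, 13.5 and 15.6 TPM (14.3 ± 1.11), on 91, 80 and 90 counts. Pmaip1, the NOXA gene and a p53 target whose protein acts mainly on MCL1, had 9.65, 10.9 and 10.5 TPM (10.3 ± 0.623), on 178, 200 and 200 counts. These 2 genes lay close together but did not overlap. Bcl2l11, the gene of BIM, a strong binder of all guardians, had 4.83, 3.76 and 3.97 TPM (4.19 ± 0.567), on 120, 89 and 82 counts. It was the lowest expressed member, above 16.5% of expressed protein-coding genes, and Bid was 24.5 ± 3.78 times as high.

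The order of the members by level was Bax, Bid, Mcl1, Bcl2l1, Bbc3, Bak1, Bad, Pmaip1, Bcl2l11 and Bcl2, and the means of the kallisto-style tables gave the same order. In 8 of the 9 neighbouring pairs the ranges over the libraries did not overlap, with or without replicate 1 and in the kallisto-style tables too. The exception was Bak1 and Bad: Bak1 was higher by 4.98 and 0.96 TPM in replicates 1 and 2 and lower by 1.78 TPM in replicate 3. In the kallisto-style tables Bak1 was higher in all 3 libraries, by 6.82, 2.10 and 0.387 TPM, and the ranges overlapped. Bak1 and Bad therefore did not differ beyond their spread. The narrowest of the other gaps relative to its spread was Bbc3 over Bak1, at 3.69, 11.34 and 13.97 TPM. With 3 libraries an exact sign-flip test of such a difference cannot give a p under 0.25, so none was run.

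Summed by role, effector mRNA exceeded guardian mRNA, and BH3-only mRNA was close to guardian mRNA. Effectors summed to 402, 433 and 397 TPM (410.5 ± 19.2), BH3-only genes to 148, 155 and 162 TPM (155 ± 7.23), and guardians to 149, 135 and 137 TPM (140.4 ± 7.83). Of the summed level of the 10 genes, effectors took 58.1 ± 1.501%, BH3-only genes 22.0 ± 1.16% and guardians 19.9 ± 1.36%. One gene carried most of each sum: Bax took 96.2 ± 0.738% of the effectors, Bid 65.1 ± 0.646% of the BH3-only genes and Mcl1 59.8 ± 1.39% of the guardians.

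The log2 ratio of effectors over guardians was 1.43, 1.68 and 1.54 (1.55 ± 0.126), and 1.65 ± 0.0868 in the kallisto-style tables. That of BH3-only genes over guardians was -0.01, 0.20 and 0.25 (0.14 ± 0.140), so its sign was not the same in all 3 libraries, and 0.24 ± 0.0619 in the kallisto-style tables. Both ratios depend on the scale: on counts, which are not per length, they were -0.37 ± 0.105 and -0.41 ± 0.112. The transcripts of the leading genes averaged 880 nt for Bax, 2173 nt for Bid and 3418 nt for Mcl1. Without replicate 1 the ratios on TPM were 1.61 and 0.22. These sums are of mRNA, and no protein was measured.

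**Figure D2:**
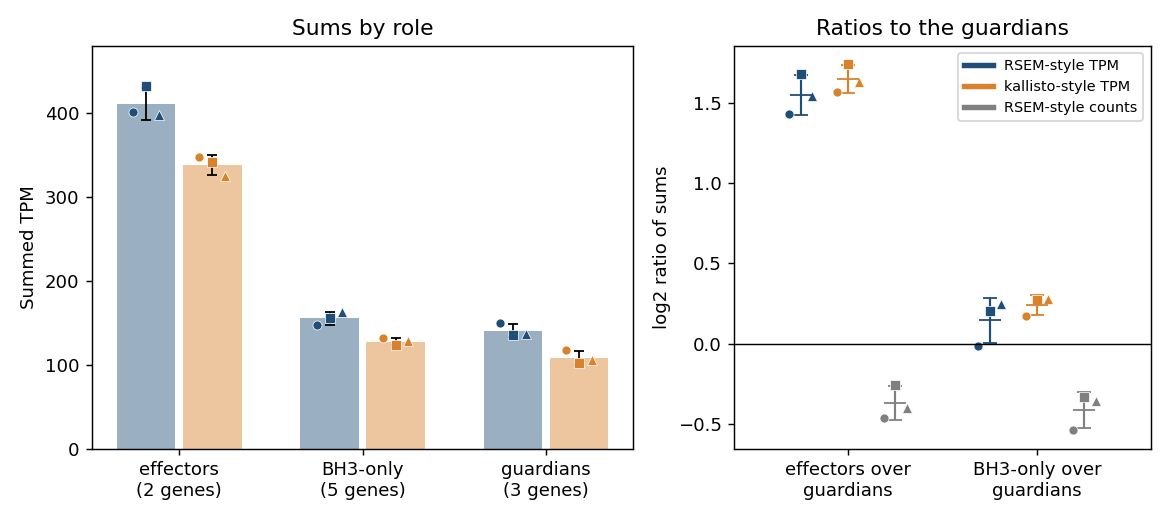
Left, summed TPM of the effectors, BH3-only genes and guardians, as bars from 0 at the mean with the SD over 3 libraries and 1 symbol for each replicate (circle, square and triangle for replicates 1, 2 and 3). Right, log2 ratio of effectors and of BH3-only genes to guardians on 3 scales, with mean and SD. Effectors lie above guardians on both TPM scales and below them on counts.

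Genes of about the same level as the leading member of each role were, by the smallest largest difference in log2(TPM + 1) over the 3 libraries among protein-coding genes, a mixed group. Closest to Bax were Slc3a2, a subunit of amino acid transporters, at 400.4 ± 20.3 TPM (largest difference 0.05) and Atp6v0b, a subunit of the vacuolar proton pump, at 395 ± 3.53 TPM (0.07). Closest to Bid were Ppp2cb, a catalytic subunit of protein phosphatase 2A, at 101.4 ± 4.26 TPM and Pitpnb, a phosphatidylinositol transfer protein gene, at 100.4 ± 3.10 TPM (0.02 each). Closest to Mcl1 were Grb2, an adaptor of receptor tyrosine kinases, at 85.6 ± 3.72 TPM and Hsd17b12, a gene of fatty acid elongation, at 84.3 ± 5.61 TPM (0.04 each).

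No member was called for its spread between libraries beyond that of other genes. In edgeR's quasi-likelihood fit, which asks whether a gene varies more than genes of its abundance, 0 of the 9 members tested passed at an adjusted p under 0.05, against 5 of 13391 genes (0.0373%). None had an unadjusted p under 0.05 in edgeR, and limma-voom also called 0 of 9. The member nearest to passing was Bak1 (edgeR adjusted p = 0.987). Bcl2 was left out by the filter on low counts.

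Counting noise alone is a lower bar for calling a gene variable. By a chi-square test against Poisson with Benjamini-Hochberg adjustment, 3 of the 9 members varied beyond it, against 12.4% of the same 13391 genes. That share was not matched for counts, and this test picks up smaller relative spreads in genes with more counts. Bax had 190.2, 214 and 198.6 CPM in replicates 1, 2 and 3 (adjusted p = 0.00970). Bid had 139.8, 153 and 156.6 CPM (adjusted p = 0.0411). Bak1 had 24.7, 19.6 and 18.7 CPM (adjusted p = 0.0464). Replicate 1 was the lowest of the 3 libraries for Bax and Bid and the highest for Bak1. Without replicate 1 none of the 9 passed (adjusted p of 0.562 for Bax, 0.950 for Bid and 0.967 for Bak1), and over all genes 27 passed. Bax also missed the threshold without replicate 2 (adjusted p = 0.456), and Bid and Bak1 without replicate 3 (0.114 and 0.0976).

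The log2 ratio of replicate 1 to the mean of the others, on CPM, was 0.38 for Bcl2l11 and 0.37 for Bak1, above the 95th percentile of 0.26 over the 7584 genes described above. It was -0.28 for Pmaip1, below the 5th percentile of -0.21. Bcl2l11 had 11.5, 9.37 and 8.27 CPM, Pmaip1 16.99, 21.05 and 20.2 CPM and Bak1 24.7, 19.6 and 18.7 CPM, under or near the 20 CPM that those genes had to reach on average, where counting noise is larger. For the other 6 it ran from -0.16 (Bbc3) to 0.12 (Bcl2l1). The mean transcript lengths of the 3 outlying genes were 3278 nt for Bcl2l11, 1983 nt for Bak1 and 2689 nt for Pmaip1. The part of transcript length in these values was not tested.

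**Figure D3:**
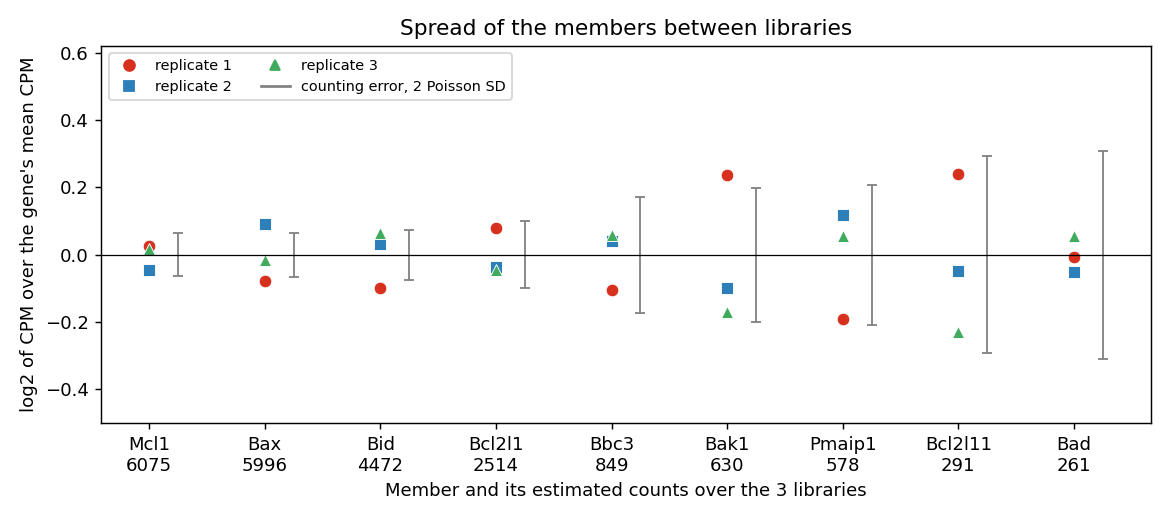
Spread of the 9 members tested, as log2 of CPM over the gene's own mean CPM in each library, with members along the x axis by their estimated counts over the 3 libraries. Grey bars give 2 Poisson SD around 0. Replicate 1 lies highest for Bcl2l11, Bak1, Bcl2l1 and Mcl1 and lowest for Bax, Bid, Bbc3 and Pmaip1.

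The 2 quantifications of the same reads gave the 9 expressed members different mean gene levels in the same order. RSEM-style levels averaged 395 ± 20.2 TPM for Bax, 101.0 ± 3.72 for Bid, 83.9 ± 4.20 for Mcl1 and 56.4 ± 4.33 for Bcl2l1, against kallisto-style levels of 324 ± 8.85, 80.4 ± 2.45, 66.7 ± 5.02 and 41.3 ± 3.03 TPM. For the lower members RSEM-style levels averaged 25.4 ± 2.67 TPM for Bbc3, 15.7 ± 2.72 for Bak1, 14.3 ± 1.11 for Bad, 10.3 ± 0.623 for Pmaip1 and 4.19 ± 0.567 for Bcl2l11, against kallisto-style levels of 23.0 ± 1.84, 14.2 ± 3.64, 11.1 ± 0.318, 9.56 ± 0.497 and 3.57 ± 0.538 TPM. The RSEM-style mean was the higher in all 9. In replicate 1, though, the kallisto-style level was higher for Pmaip1 (10.1 against 9.65 TPM) and Bbc3 (22.9 against 22.5 TPM). The within-library difference in log2(TPM + 1), RSEM-style minus kallisto-style, ran from 0.10 for Pmaip1 to 0.44 for Bcl2l1, with a median of 0.28, beside a median of 0.25 over all 14795 genes tested.

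With limma, at an adjusted p under 0.05 and a difference of at least 1, 0 of the 9 members were called, against 13.1% of all genes. The unadjusted limma p was under 0.05 for 6 of them, and the same 6 (Bcl2l1, Mcl1, Bid, Bax, Bad and Bcl2l11) passed as RSEM-style higher when no minimum difference was asked, as did 61.3% of all genes. For Bcl2l1, the member of largest difference, it was 0.44 ± 0.0467 (SE, limma adjusted p = 0.00226). Bid at 80.4 TPM in the kallisto-style tables lay under Mcl1 at 83.9 TPM in the RSEM-style tables, so levels were set in order only within a quantification.

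The annotation gives the 10 genes 52 of its 141767 transcripts, and 40 of the 52 are annotated with a coding type. In 8 of the 9 expressed members the most abundant transcript was a complete coding transcript with the BH3 codons, in both quantifications. Bak1 was the exception.

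**Figure D4:**
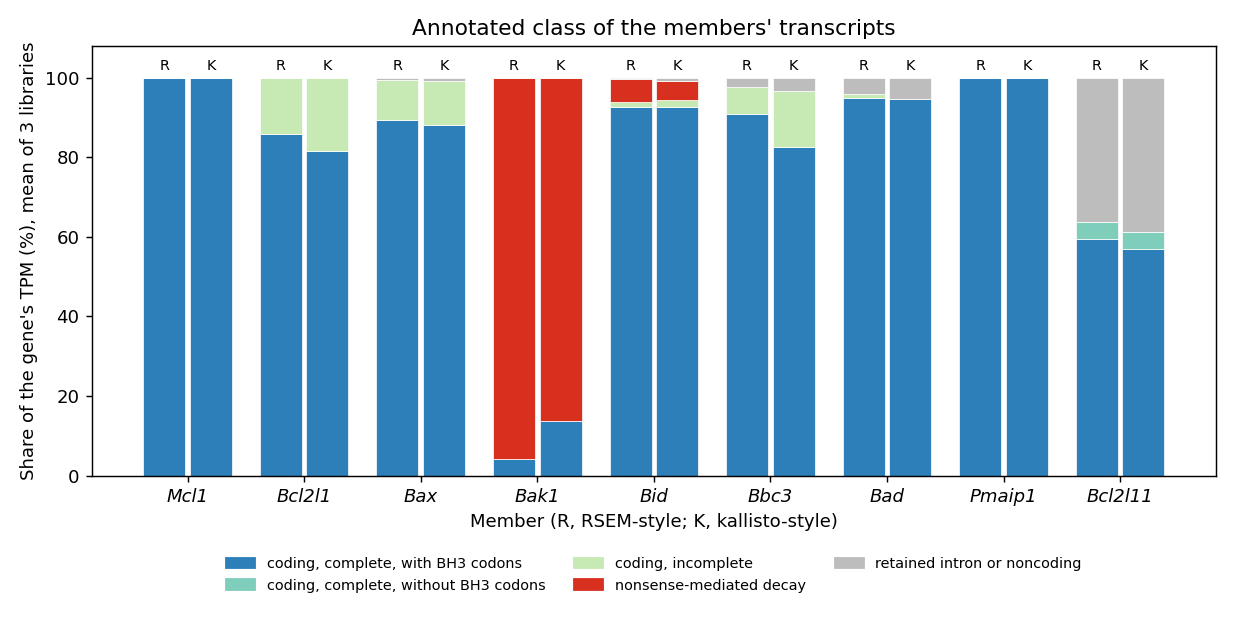
Mean share of each expressed member's TPM by annotated class of transcript, with RSEM-style bars (R) left of kallisto-style bars (K) for each gene. Complete coding transcripts with BH3 codons make up most of 8 members, Bak1 is mostly in transcripts annotated for nonsense-mediated decay, and Bcl2l11 has a large noncoding share.

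Bak1 was assigned mostly to 2 transcripts that are annotated as targets of nonsense-mediated decay, the route that destroys mRNAs with an early stop codon. Bak1-204 had 9.09, 8.73 and 7.14 TPM in replicates 1, 2 and 3, or 53.5 ± 6.16% of the gene, against 45.5 ± 11.6% in the kallisto-style tables. Bak1-201 had 7.98, 5.75 and 6.19 TPM, or 42.3 ± 2.57%, against 40.8 ± 13.1% in the kallisto-style tables. Both lay above every other Bak1 transcript in all 3 libraries of both tables. The full-length coding transcript Bak1-202, of 209 codons, was named here after its values were seen. It had 1.74, 0 and 0.47 TPM on 28.99, 0 and 7.72 estimated counts in the RSEM-style tables. The kallisto-style tables gave it 0.7265, 0.7196 and 1.267 TPM on 24.41, 24.83 and 45.12 estimated counts. The quantifications therefore disagreed on its presence in replicate 2. Together the transcripts annotated for decay took 90.7, 100 and 96.6% (95.8 ± 4.68%), against 84.7, 85.4 and 88.8% (86.3 ± 2.20%) in the kallisto-style tables. Without replicate 1 the share was 98.3%.

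Among expressed protein-coding genes with a transcript of this class, it came first in 227 of 3359 (6.76%) in the RSEM-style tables and in 255 of 3385 (7.53%) in the kallisto-style tables. Of the 10 members Bak1 and Bid have such a transcript, and in Bid it did not lead. Bid-204, named after its values were seen, took 5.71 ± 0.602% and 4.91 ± 0.231% of Bid in the RSEM-style and kallisto-style tables and has the same 195 codons as the leading Bid-201.

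Bak1-201 and Bak1-202 differ at a 20-nt exon at chr17:27021663-27021682 (mm10, minus strand), which lies after the BH3 codons and is the sort of exon described in mouse neurons as making a shorter BAK. The junction is shown with the exon in capitals, so that its shift of the reading frame can be seen.
Bak1-201: tccagGCCAGCAGCAACATGCACAGcctat
Bak1-202: tcgcctccagcctatttaag

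With the exon the coding region has 151 codons and keeps the BH3 codons, and without it 209. Bak1-204 and Bak1-202 differ at the start of the exon that follows the first coding exon, where Bak1-204 begins 5 nt further in. Capitals mark those bases.
Bak1-202: cgtccccttctgAACAGcaggttgcccag
Bak1-204: cgtccccttctgcaggttgcccag

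These bases lie before the BH3 codons, so the reading frame of Bak1-204 is already shifted there. Its coding region ends after 79 codons and holds no BH3 pattern. The 4 Bak1 transcripts also differ in the first exon, of 177 nt in Bak1-204, 168 nt in Bak1-201, 599 nt in Bak1-202 and 284 nt in Bak1-203, so the assignment does not rest on these junctions alone. The tables give no junction counts, so the use of either splice site was not measured directly. Bak1 shares 18.2% of its exon bases with Ggnbp1 on the opposite strand, which had 10.9, 9.13 and 9.63 TPM, and without the strand setting reads of that stretch cannot be told apart. Ggnbp1 matches nt 1 to 183 of Bak1-204 at 99.5%, a stretch that takes in its whole first exon of 177 nt. The part of that overlap in the shares was not tested.

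**Figure D5:**
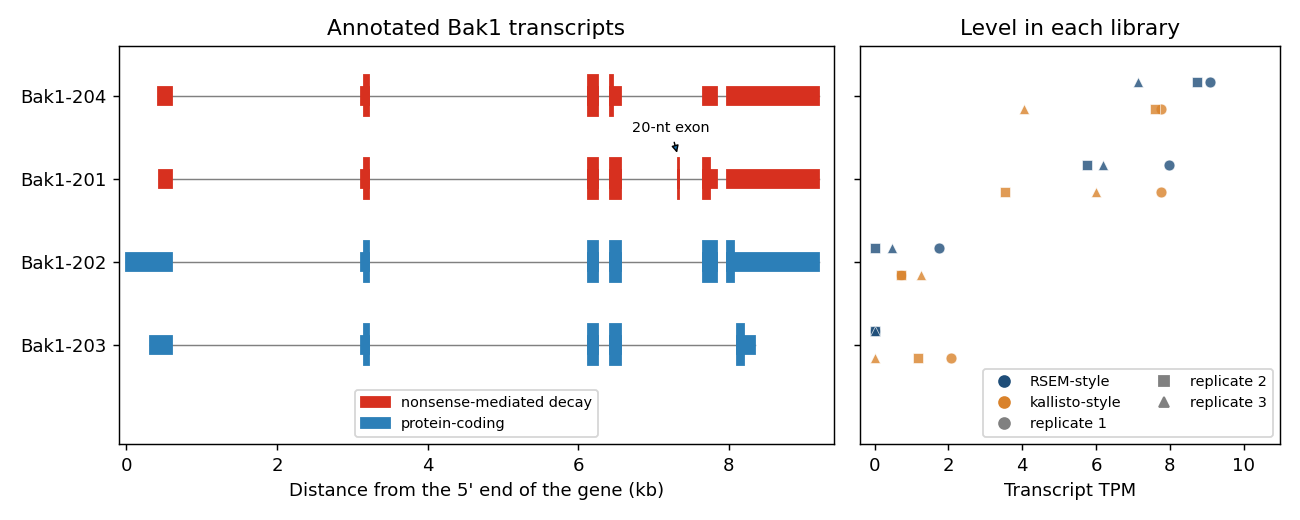
Left, exons of the 4 annotated Bak1 transcripts to scale by distance from the 5′ end of the gene, with coding parts taller, decay targets in red and coding transcripts in blue. Right, TPM of each transcript in each library, RSEM-style above kallisto-style, with circle, square and triangle for replicates 1, 2 and 3. In the RSEM-style tables Bak1-204 and Bak1-201 lie at 5.75 to 9.09 TPM and Bak1-202 at 0 to 1.74 TPM. Bak1-202 lies at 0.7196 to 1.267 TPM in the kallisto-style tables.

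Bax was assigned mostly to Bax-201, which codes the full 192 codons and had 309, 345 and 317 TPM, or 82.0 ± 0.967% of the gene, against 80.0 ± 0.723% in the kallisto-style tables. It led in every library. Of the other Bax transcripts, chosen after their values were seen, Bax-203 with an incomplete coding region took 9.66 ± 1.52% and 9.55 ± 0.818%, and Bax-205 took 7.34 ± 0.866% and 8.19 ± 0.934%, in the RSEM-style and kallisto-style tables. Bax-205 begins an exon 4 nt further in than Bax-201 does, which leaves 171 codons, and the bases lost are in capitals.
Bax-201: cagggtggctggGAAGgcctcctctcct
Bax-205: cagggtggctgggcctcctctcct

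Bax-205 keeps the BH3 codons. Bax-204, an incomplete transcript of 222 nt without them, was the only member transcript called between the quantifications. It was listed at 0 in all 3 RSEM-style tables, against 4.44 TPM on average in the kallisto-style ones. That level rests on only 10.05, 5.038 and 7.581 estimated counts in replicates 1, 2 and 3. The difference was -2.40 in log2(TPM + 1) (limma adjusted p = 0.00393). So 1 of the 23 member transcripts tested was called, against 18.9% of 28903 transcripts in either direction and 12.1% with the kallisto-style level higher. Without replicate 3 a second one, Bak1-203, was called as well (difference -1.37). Bak1-203 was listed at 0 in the RSEM-style tables and had 2.07, 1.19 and 0 TPM in the kallisto-style ones. Both quantifications thus gave 0 in replicate 3, the library left out.

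The guardians were led by full-length forms. Mcl1-201, with 331 codons, took 100% of Mcl1 and 99.7 ± 0.520% in the kallisto-style tables, so the shorter coding transcript Mcl1-202, which was named after its values were seen, was close to 0. Bcl2l1-201 had 42.2, 39.5 and 36.7 TPM, or 70.1 ± 1.23% of Bcl2l1, against 59.8 ± 5.95% in the kallisto-style tables. Bcl2l1-202 took 15.4 ± 2.98% and 21.2 ± 5.18% in the same order. Both have the same coding region of 233 codons, the long anti-apoptotic form, and differ outside it. Bcl2-201 and Bcl2-202 both hold the BH3 codons, and with 5 counts in all their shares were not read.

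Bcl2l11 was the most divided of the BH3-only genes. Bcl2l11-205, with 196 codons the form known as BIM-EL, had 2.59, 1.64 and 1.76 TPM, or 47.2 ± 5.58%, against 43.1 ± 1.40% in the kallisto-style tables. The noncoding Bcl2l11-206 had 1.56, 1.05 and 1.61 TPM, or 33.6 ± 6.41%, against 36.4 ± 6.75%. It rests on 9.21, 5.90 and 9.36 estimated counts, fewer than the 95.8, 57.7 and 64.4 behind Bcl2l11-205. The 2 transcripts are 974 and 5036 nt long. Bcl2l11-203, with 140 codons the form known as BIM-L, had 0.50, 1.00 and 0 TPM, or 12.3 ± 13.4%, against 8.62 ± 9.45% in the kallisto-style tables. It lacks a stretch of 168 nt, or 56 codons, at chr2:128128757-128128924 (mm10, plus strand) that Bcl2l11-205 keeps, and its share did not differ from 0 beyond the spread.

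The other BH3-only genes each had a clear lead. Bid-201 took 92.5 ± 0.786% of Bid and 92.7 ± 0.962% in the kallisto-style tables. Bbc3-201, with 193 codons, took 90.8 ± 8.13% and 82.6 ± 7.67% of Bbc3, and 100% in replicate 1 of the RSEM-style tables. Pmaip1-201, with 103 codons and the BH3 pattern at 2 places, as is known of mouse NOXA, took 97.3 ± 3.36% and 98.2 ± 3.06% of Pmaip1. Bad-202, with 162 codons, had 10.7, 9.97 and 11.1 TPM, or 74.1 ± 3.22% of Bad, against 80.7 ± 4.85% in the kallisto-style tables. Bad-201, which has 204 codons, took 11.1 ± 2.69% and 13.6 ± 2.89%.

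Other overlaps touch these values. On the opposite strand Bid shares 17.7% of its exon bases with Bcl2l13, itself a family gene, and Bad shares 20.5% with Gpr137, which had 5.96, 5.61 and 5.62 TPM. Bax shares 12.2% with Gm45808 on the same strand, which had 0.40, 0.77 and 0.32 TPM. Mcl1 has a near copy, the processed pseudogene Gm20432, which matches it at 91.8% over 245 nt and was listed at 0 TPM in all 3 libraries.

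Of 15 other BCL2 family genes 9 reached the threshold, beside 52.1% of protein-coding genes. The median log2(TPM + 1) of the 15 was 1.39 ± 0.171, close to the 1.51 ± 0.0336 of all protein-coding genes. For the 10 members the median was 4.41 ± 0.0531, and for expressed protein-coding genes 4.36 ± 0.0499. Bnip3l and Bnip3, genes of mitophagy receptors, had 94.1 ± 11.7 and 39.2 ± 3.19 TPM, and Bcl2l13, another mitochondrial member, had 23.6 ± 6.49 TPM. Bcl2a1a, a guardian gene of blood cells, had 0 counts in all libraries.

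Of 15 genes of the mitochondrial death pathway 14 reached the threshold, beside 52.1% of protein-coding genes. The median log2(TPM + 1) of the 15 was 5.71 ± 0.0857. The porin genes of the outer membrane were highest: Vdac1 had 375 ± 41.8, Vdac3 266 ± 7.51 and Vdac2 227 ± 8.78 TPM. Casp8, the caspase that cuts BID, was lowest, with 0.94, 0.96 and 1.55 TPM, so only replicate 3 passed 1 TPM, and it was the 1 gene of the 15 that missed the threshold. In the kallisto-style tables Casp8 had 1.00, 1.07 and 1.47 TPM and passed it. All 5 genes listed as caspase inhibitors were expressed. Birc5, a gene of dividing cells (survivin), was the highest of this list at 233 ± 4.19 TPM. Birc2 followed at 23.4 ± 0.0950 and Xiap at 15.6 ± 3.54 TPM, with Birc3 lowest at 2.38 ± 0.596 TPM.

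All 11 regulators of the members were expressed, beside 52.1% of protein-coding genes. Their median log2(TPM + 1) was 6.38 ± 0.0487, the highest of these 4 pathway lists. Ywhaz, a 14-3-3 gene whose protein can bind phosphorylated BAD, had 349 ± 16.5 TPM, Trp53, the p53 gene, 252 ± 8.26 TPM, and Usp9x, whose protein removes ubiquitin from MCL1, 161 ± 12.6 TPM. Trp73, the p73 gene, was lowest, with 1.55 TPM in replicate 1 and 1.45 TPM in replicate 3. Among the 40 genes of these 4 lists that edgeR tested, 0 varied beyond genes of their abundance at an adjusted p under 0.05, beside 0.0373% of all genes. The unadjusted edgeR p was under 0.05 for 1 of them, and limma-voom also called 0. Beyond counting noise 9 of the 40 varied, beside 12.4% of all genes (not matched for counts), the 3 porin genes among them. Without replicate 1 it was 0 of 40. Between quantifications limma also tested 40 genes of these lists, with Bik in place of Bmf. It called 0 of them at a difference of at least 1, beside 13.1% of all genes.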

How the data were processed

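Total RNA of 3 F121-9 libraries was analysed as 1 group. The deposited gene and transcript tables with RSEM columns were made from transcriptome alignments, and the deposited kallisto-style transcript tables from read files, per the notes deposited with the libraries, on mm10 with GENCODE M21. The sources used here give no quantifier, aligner, version or strand setting. The authors' expected counts (estimated counts) are not normalized, and the deposited TPM values share 1 total across libraries. Rows with tRNA numbers in place of genes took at most 0.000160% of the counts, and these and 96 ERCC rows stayed out of library sizes and tests; SIRVs were not analysed here.

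Counts were rounded. Spread between libraries was tested with edgeR 4.0.16 (filterByExpr, TMM, intercept-only quasi-likelihood fit, an F test of each dispersion against the trended prior) and by chi-square against Poisson counts (2 degrees of freedom). The quantifications were compared with limma 3.58.1 on within-library differences of log2(TPM + 1), for features that reached 1 TPM in each library by 1 quantification or the other, which understates the change of low features. Tests ran over all genes or transcripts with Benjamini-Hochberg adjustment at 0.05 in R 4.3.3; the scripts were tested on simulated data. Near copies were sought with blastn 2.17.0 (at least 90% identity over 100 nt). A count of 0 allows 3 counts, 0.288 to 0.313 CPM per library, for counting error only. Alternatives were DESeq2 1.42.0 size factors, ERCC scaling, limma-voom, other filters, pseudocounts and thresholds, kallisto-style counts and leaving out each library.

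The members and lists were chosen with earlier results of these data known. Named are the 10 members, their transcripts of at least 10% of the gene in either table or called between quantifications, the 3 highest and the lowest of each list, any list gene called as variable, and the 2 protein-coding genes nearest in level to Bax, Bid and Mcl1. Other transcripts named were chosen after their values were seen. The sequence of 1 member, Pmaip1, is not shown here.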

Additional observations from a re-analysis of the deposited data

How the results depend on the processing

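No paired analysis was possible because the 3 libraries form 1 group, with no second group to pair them with; the quantifications were compared within each library. The number of members expressed was 8 to 9 and that of pathway genes 33 to 41 under every threshold, table and left-out library tried, and 8 to 9 of the 9 neighbouring pairs stayed apart. The mean log2 ratios to the guardians kept their sign on both TPM scales, from 1.48 to 1.65 for effectors and from 0.09 to 0.24 for BH3-only genes, and turned to -0.37 and -0.41 on counts that are not per length. The share of Bak1 in decay targets was 86.3% in the kallisto-style tables and 93.7 to 98.3% over the left-out libraries (both tried after the data were seen). Genes called variable over the whole table numbered 2 with ERCC scaling, 34 without the filter, 8 with limma-voom, 16 with kallisto-style counts and 7 to 14 with a library left out, and none of the members was called in any of these (adjusted p of 0.904 or more). The count beyond counting noise was 2800 on kallisto-style counts and 27 to 1471 with a library left out, 27 being the value without replicate 1; without the filter Bax was the only member called. Between quantifications 979 genes and 2753 transcripts were called at a TPM of at least 5, and 11481 and 17807 with no minimum difference. The cause of these moves was not tested. Depth limits Bcl2, with 5 counts in all, and the shares of Bak1, Bad and Bcl2l11, with 261 to 630 counts a gene.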
